A study of Homo sapiens with 6 samples.

Results

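The genes described here are 10 components of transforming growth factor beta (TGF-beta) signalling in NB4 cells: the ligand TGFB1, the receptors TGFBR1 and TGFBR2, the SMAD proteins SMAD1, SMAD3, SMAD6 and SMAD7, and the repressors SKI, SKIL and TGIF1. They were represented by every probe set annotated to 1 of these genes alone, which gave 30 probe sets of the 41091 non-control probe sets that carry a single gene (54675 on the array in all). NB4 is an established human cell line from acute promyelocytic leukaemia, in which PML is fused to the retinoic acid receptor RARA. The cells had been given all-trans retinoic acid (ATRA), a retinoic acid receptor ligand under which such cells mature toward neutrophils, at 1e-06 M for 4, 12, 24, 48 or 72 h, against untreated cells at 0 h. Each of the 6 times had 1 Affymetrix array and no replicate, so that time in ATRA and time in culture cannot be told apart.

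TGF-beta is secreted as a latent precursor and, once released, binds the type II receptor TGFBR2, which recruits and phosphorylates the type I receptor TGFBR1. TGFBR1 phosphorylates SMAD2 and SMAD3, which join SMAD4 and enter the nucleus, whereas receptors for bone morphogenetic proteins (BMPs) act through SMAD1, SMAD5 and SMAD9. SMAD6 and SMAD7 inhibit the pathway, and SKI, SKIL and TGIF1 repress SMAD-bound genes. In myeloid cells the pathway is known for restraining proliferation and for a part in maturation, and PML-RARA is known to interfere with TGF-beta signalling in leukaemic cells.

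The 250 bases before each annotated start were read from RefSeq promoter sequences of build GRCh38.p14, which held 33 windows for 9 of the 10 genes. Shown are the only window of SKIL, the gene with the widest range over the 6 arrays, the window before the most upstream of 8 starts of TGFBR1, the gene with a called fall, and the only window of SMAD6, which holds the complete palindromic SMAD box GTCTAGAC. Sequences run 5′ to 3′ on the strand of the gene, and capitals mark GTCT or its reverse complement AGAC, which each make up one side of that box.
SKIL chr3:170357465-170357714 +: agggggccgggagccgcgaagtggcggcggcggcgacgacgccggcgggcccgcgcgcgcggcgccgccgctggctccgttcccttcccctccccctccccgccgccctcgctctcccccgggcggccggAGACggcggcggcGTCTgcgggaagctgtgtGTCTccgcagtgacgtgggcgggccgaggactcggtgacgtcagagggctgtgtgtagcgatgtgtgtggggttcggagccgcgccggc
TGFBR1 chr9:99103397-99103646 +: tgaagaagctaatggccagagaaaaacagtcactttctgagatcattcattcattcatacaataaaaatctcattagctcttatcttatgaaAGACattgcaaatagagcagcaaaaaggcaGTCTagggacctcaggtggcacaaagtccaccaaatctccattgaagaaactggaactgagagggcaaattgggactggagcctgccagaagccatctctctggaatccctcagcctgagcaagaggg
SMAD6 chr15:66701986-66702235 +: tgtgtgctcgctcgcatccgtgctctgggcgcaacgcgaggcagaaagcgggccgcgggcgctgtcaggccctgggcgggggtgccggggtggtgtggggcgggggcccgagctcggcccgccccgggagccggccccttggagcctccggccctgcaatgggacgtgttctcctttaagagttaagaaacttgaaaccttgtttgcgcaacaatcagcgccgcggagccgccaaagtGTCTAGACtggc
GTCT or AGAC occurred in 24 of the 33 windows and in 77.5% of the 35116 windows of all genes. The 3 matches in the SKIL window began 120, 107 and 89 bases before the start, with 1 GGCGCC, a GC-rich SMAD element present in 16.4% of all windows, at 190 bases before it. The palindrome, which is its own reverse complement and overlaps a match of each, began 12 bases before the SMAD6 start and was present in 0.182% of all windows. The retinoic acid receptor motifs AGGTCA and GGTTCA, read on both strands, were in 6 and 2 of the 33 windows and in 12.1% and 7.16% of all windows. CAGACA, the CAGA box, was in 6 of the 33 windows (13.6% of all windows), and TGTCA, the TGIF site, in 12 (34% of all windows). None of these motifs occurred in the TGFB1 window. A match is a match of letters and was not tested for binding.

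Values are log2 probe set levels normalised between arrays by the authors. A probe set was kept for tests if at least 1 array reached 3.66 (the overall median), which kept 19 of the 30 probe sets and 25189 in all. SMAD1 had none of 3 kept, while all 4 were kept for SMAD3, all 3 for TGFBR1, 2 of 2 for TGFBR2, 2 of 5 for SKIL, 2 of 4 for SMAD6, 2 of 3 each for SKI and TGIF1, 1 of 2 for TGFB1 and 1 of 1 for SMAD7. The kept SMAD7 probe set and TGFBR2 207334_s_at were below 3.66 in untreated cells and passed only through later values. Probe sets bind with different strengths, so levels are compared within a probe set and never between them.

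The arrays differed in their control probe sets. The spiked bioC control averaged 8.01 and 8.12 on the 0 and 12 h arrays and between 6.88 and 7.17 on the others. An 18S ribosomal control read 9.98 at 12 h against 5.80 to 6.80 elsewhere. Another ribosomal control was high at 12, 48 and 72 h (10.3, 9.5 and 9.6). At 0, 4 and 24 h it read 6.8, 6.3 and 7.5. The part of this array difference in the late levels of other probe sets was not tested. The label of the cells was checked against markers. The promyelocyte genes MPO, PRTN3, AZU1, CTSG and ANPEP were kept, while ELANE stayed at or below 3.32. The 3 monocyte markers lay between 2.05 and 3.59 and the B cell marker MS4A1 between 2.54 and 2.75. Markers of T cells (3.59 to 4.07), the erythroid line (4.53 to 4.77), megakaryocytes (2.44 to 5.06), fibroblasts (3.29 to 5.56) and epithelium (2.78 to 5.86) each included at least 1 gene at the filter.

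The ligand TGFB1 rose through the course, most in its last step. At 72 h the brightest probe set of TGFBR2 was above untreated and that of TGFBR1 below it. TGFB1 and TGFBR2 rose and TGFBR1 fell in the test of a slope over the 6 times, and SKIL, a SMAD repressor, stood higher from 4 h on. A linear slope over time order, in log2 units per step, was tested with limma over all 25189 kept probe sets, with Benjamini-Hochberg adjustment and a threshold of 0.05. Of the 19 kept probe sets of these genes, 3 rose and 1 fell. Of all kept probe sets, 7.47% rose and 9.68% fell, and counts of 3 and 1 among 19 do not set these genes apart from that background. An unadjusted p under 0.05 was reached by 8 of the 19 probe sets and by 8242 of the 25189.

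**Figure D1:**
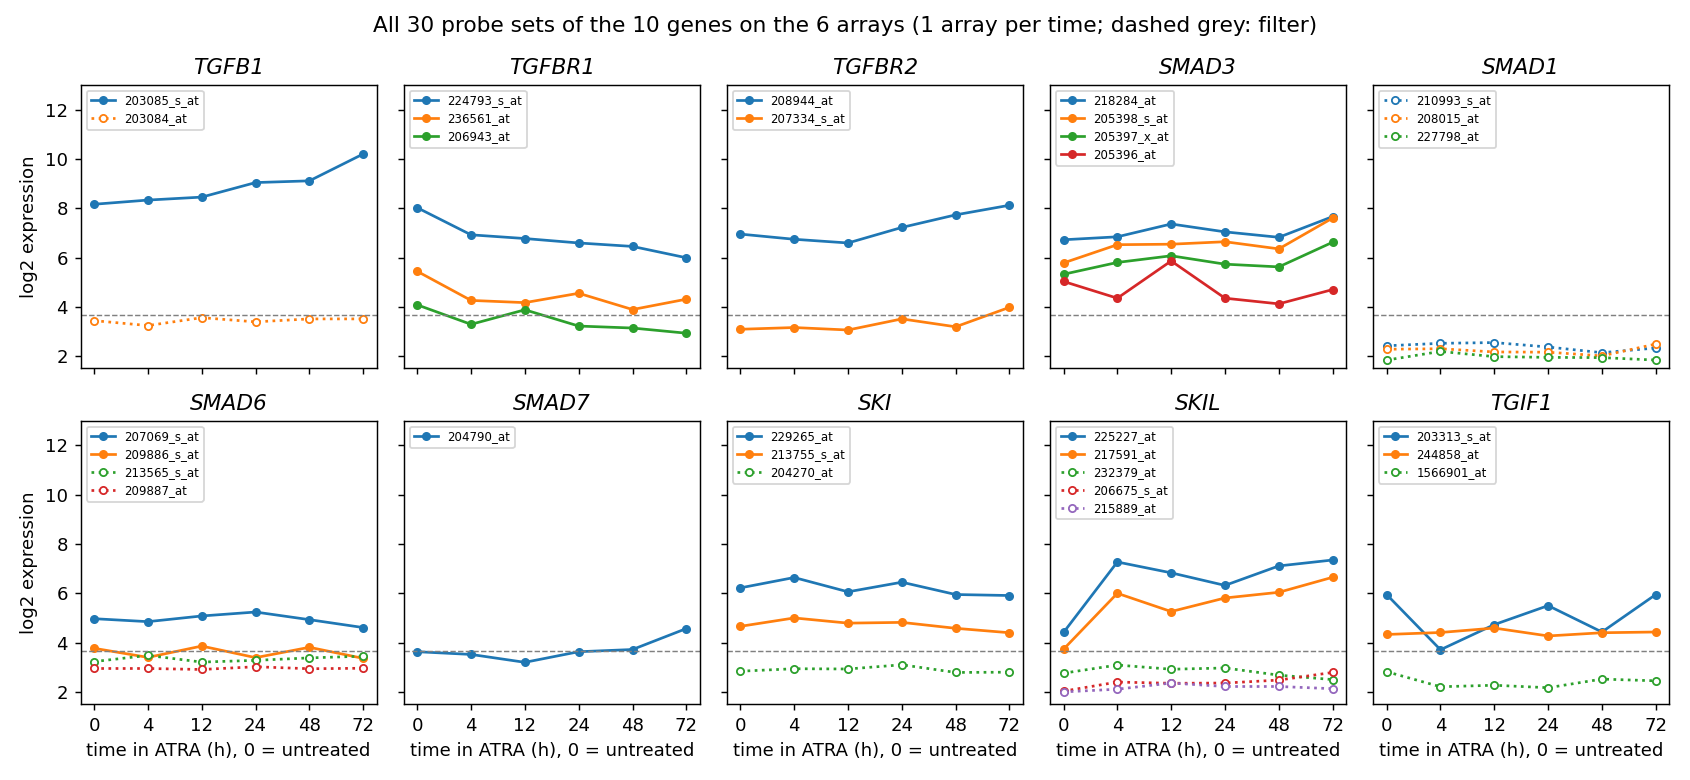
Log2 level (vertical axis) of all 30 probe sets of the 10 genes on the untreated array (0 h) and after 4 to 72 h in ATRA (horizontal axis, evenly spaced). Filled points and solid lines are the 19 probe sets above the filter of 3.66 (dashed grey line), open points and dotted lines the 11 below it; each point is 1 array. TGFB1 203085_s_at climbs to 10.20, TGFBR1 224793_s_at declines to 5.99 and the 2 kept SKIL probe sets stand higher from 4 h on.

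TGFB1 encodes the ligand itself. Its kept probe set, 203085_s_at, read 8.16 untreated and 8.33, 8.45, 9.04, 9.11 and 10.20 after 4, 12, 24, 48 and 72 h of ATRA. Every ATRA array was higher than the untreated one, although the 4 h difference turns with the arrays shifted to equal bioB, bioD and cre controls, and the step between 48 and 72 h, 1.10 in log2, was the widest. The level at 72 h was 4.11-fold that of untreated cells, and it was 1.92-fold at 48 h. The slope was 0.37 ± 0.06 (SE) per step with a limma adjusted p of 0.0099. With the 72 h array left out the slope was 0.26 and the adjusted p 0.0513. Within the 4, 24, 48 and 72 h arrays, which share a bioC level, the slope was 0.42 with an adjusted p of 0.0723. The second TGFB1 probe set, 203084_at, lay between 3.24 and 3.56 on all arrays, below the filter.

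TGFBR1, the type I receptor kinase that passes the signal to SMAD2 and SMAD3, was lower in ATRA-treated than in untreated cells by all 3 probe sets and at all 5 times, except that 206943_at turns at 48 h with the arrays shifted to equal hybridisation controls. The brightest, 224793_s_at, read 8.02 untreated and 6.92, 6.77, 6.59, 6.45 and 5.99 at 4, 12, 24, 48 and 72 h. The difference was -1.10 by 4 h, when the level was 2.14-fold lower than untreated, and -2.03 by 72 h, and each later array was lower than the one before. At 72 h the level was 4.07-fold lower, and the slope of -0.34 ± 0.06 (SE) per step had a limma adjusted p of 0.015. In bulk RNA, fewer cells with the transcript and less of it per cell cannot be told apart.

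The call of TGFBR1 224793_s_at was lost with the array at either end of the course left out. The slope was shallower without the untreated array, but not without the 72 h array. With the untreated array left out the slope was -0.22 (adjusted p 0.0711), and with the 72 h array left out it was -0.35 (adjusted p 0.0781). The adjusted p was 0.0528 with the bioC level as a covariate, 0.107 within the arrays that share a bioC level and 0.533 with arrays shifted to equal hybridisation controls. The direction was the same in each of these fits.

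The other TGFBR1 probe sets were not called over the 6 arrays. In 236561_at the levels were 5.44 untreated and 4.26, 4.17, 4.55, 3.89 and 4.31 in ATRA, a 1.85- to 2.93-fold lower level with an adjusted p of 0.186 for the slope. With the shift to equal bioB, bioD and cre controls it was called falling (slope -0.27, limma adjusted p just under 0.05). In 206943_at the levels were 4.08 untreated and 3.29, 3.88, 3.22, 3.14 and 2.93 in ATRA. That is at least 1.34-fold lower at 72 h (adjusted p 0.0683), where a value under 3.66 is set to 3.66 and the fold is given as a lower bound. The slope of 206943_at was called without the 4 h array (adjusted p 0.0278) and with the shift to equal bioB, bioD and cre controls (0.0397). Its 2 highest values were those of the 0 and 12 h arrays, the 2 with a high bioC level. With the bioC level as a covariate its slope was -0.11 (limma adjusted p 0.205), against -0.20 without it. The cause was not tested. Over the 6 arrays the 3 profiles correlated with Pearson r of 0.62 to 0.85.

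TGFBR2, the type II receptor that binds the ligand, had levels of 6.95 untreated and 6.74, 6.59, 7.22, 7.73 and 8.12 at 4, 12, 24, 48 and 72 h in 208944_at. It was slightly below untreated at 4 and 12 h and above it from 24 h on, with the 4 and 24 h signs depending on the scaling. At 72 h it was 2.25-fold higher than untreated, with a slope of 0.27 ± 0.07 (SE) per step and a limma adjusted p of 0.0398. This call was lost when the 4, 24, 48 or 72 h array was left out (adjusted p of 0.0843, 0.0554, 0.0945 and 0.281) and with the bioC covariate (0.117). The call was also lost with the shifts to equal hybridisation controls (limma adjusted p 0.0678) and to equal bioB, bioD and cre controls (0.0967). The second probe set, 207334_s_at, was between 3.06 and 3.51 until 48 h and reached 3.98 at 72 h, and was not called (adjusted p 0.136).

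**Figure D2:**
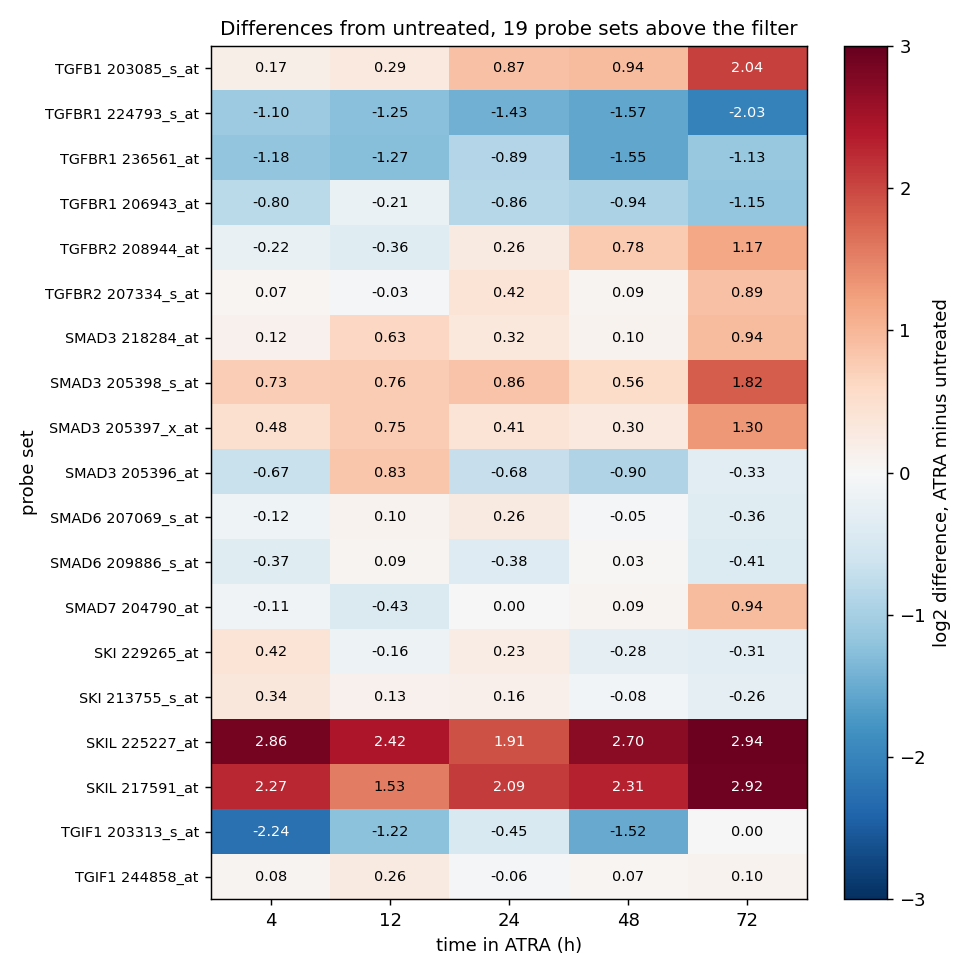
Log2 difference between each ATRA array and the untreated array for the 19 kept probe sets (rows), by time in ATRA (columns); red is higher and blue lower than untreated, and the number in each cell is the difference. The 2 SKIL rows are 1.53 or more at every time, all 3 TGFBR1 rows are below 0 at every time (206943_at at 48 h turns with the shift to equal hybridisation controls), and the TGIF1 203313_s_at row is -2.24 at 4 h and 0.00 at 72 h.

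Among the receptor-activated SMADs, SMAD3 carries the TGF-beta signal to DNA. Its brightest probe set, 218284_at, read 6.72 untreated and 6.84, 7.36, 7.04, 6.82 and 7.66 in ATRA. The next, 205398_s_at, read 5.78 untreated and 6.52, 6.54, 6.64, 6.35 and 7.60, and 205397_x_at read 5.32 untreated and 5.80, 6.07, 5.73, 5.62 and 6.62. These 3 were above untreated at every time, although 5 of the 15 differences turn, none of them at 72 h, with the shift to equal bioB, bioD and cre controls. All were highest at 72 h, when they were 1.92-, 3.53- and 2.46-fold higher. None was called (limma adjusted p of 0.252, 0.0702 and 0.175). The slope of 205398_s_at, 0.25 ± 0.08 (SE) per step, passed when the 48 h array was left out (0.32, adjusted p 0.0297) and was 0.125 with the 72 h array left out (adjusted p 0.506).

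The 3 SMAD3 profiles correlated with r of 0.87 to 0.95 over the 6 arrays, and the fourth did not follow them. Probe set 205396_at read 5.03 untreated and 4.35, 5.86, 4.35, 4.12 and 4.70 in ATRA, with r of -0.09 to 0.39 to the others. Its 2 highest values were again those of the 0 and 12 h arrays with the high bioC level. Its slope was -0.11 over the 6 arrays and 0.09 with the bioC level as a covariate (limma adjusted p of 0.591 and 0.41). The cause was not tested. SMAD1, which carries the BMP signal, had 3 probe sets between 1.84 and 2.55 on every array, all below the filter, so no change in it can be judged here.

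The inhibitory SMADs differed from untreated by at most 0.43 in log2 until 48 h. SMAD7, which blocks the type I receptor, read 3.63 untreated and 3.52, 3.20, 3.63, 3.72 and 4.57 in ATRA by its 1 probe set, 204790_at. The 72 h array alone stood above the rest, at least 1.88-fold higher than untreated, and the slope was not called (adjusted p 0.169). With hours in place of time order it was called as a rise (limma adjusted p 0.0424). Without the 72 h array the slope was 0.03. SMAD6, which acts mainly on the BMP branch, read 4.97 untreated and 4.85, 5.08, 5.24, 4.93 and 4.61 in ATRA in 207069_s_at, a range of 0.62 in log2 with no call (adjusted p 0.657). Its 72 h difference of -0.36 is 0.30 when the arrays are shifted to equal hybridisation controls. The other kept SMAD6 probe set, 209886_s_at, lay between 3.36 and 3.86, and 213565_s_at and 209887_at lay below the filter.

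SKIL (SnoN) binds SMAD2, SMAD3 and SMAD4, represses their targets, and is itself a known SMAD target. In 225227_at it read 4.41 untreated and 7.27, 6.83, 6.32, 7.11 and 7.35 in ATRA. In 217591_at it read 3.73 untreated and 6.00, 5.26, 5.81, 6.04 and 6.65. All ATRA arrays lay above the untreated one in both, and most of the difference was present by 4 h. The levels were 7.26- and 4.83-fold higher than untreated at 4 h and 7.67- and 7.59-fold higher at 72 h, and the lowest between was 2.89-fold. The 2 profiles correlated with r of 0.93. The 3 remaining probe sets, 232379_at, 206675_s_at and 215889_at, stayed below the filter.

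Both profiles stood higher at 4 h and then levelled, and in the test of a line the 2 probe sets lay on either side of the threshold. The slope of 217591_at was 0.44 ± 0.12 (SE) per step with a limma adjusted p of 0.0416, a called rise, and that of 225227_at was 0.39 ± 0.16 with an adjusted p of 0.138. Without the 4 h array both were called (slopes of 0.57 and 0.55, adjusted p of 0.00531 and 0.0289). Without the untreated array the slopes were 0.21 and 0.04 (adjusted p of 0.247 and 0.843). The rise of 217591_at was also lost without the 12, 24, 48 or 72 h array (adjusted p of 0.0763, 0.0605, 0.0716 and 0.181), with the bioC covariate (0.153) and with no filter on low values (0.0501). The step to 4 h rests on single arrays that differ in bioC level. The 12 h array, which shares the bioC level of the untreated one, was 5.34- and 2.89-fold above it, but had the highest ribosomal controls. The part of array differences in the step was not tested.

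SKI, the founding member of the SKIL family, did not share this pattern. In 229265_at it read 6.22 untreated and 6.64, 6.06, 6.45, 5.95 and 5.91 in ATRA, and in 213755_s_at 4.66 untreated and 5.00, 4.79, 4.82, 4.58 and 4.40. Both were somewhat above untreated at 4 h and below it at 48 and 72 h, within 1.33-fold throughout, and neither was called (limma adjusted p of 0.329 and 0.33). With the arrays shifted to equal hybridisation controls both were above untreated at 48 and 72 h. With the shift to equal bioB, bioD and cre controls 229265_at was called falling (slope -0.18, adjusted p 0.0375). There 213755_s_at was not called (-0.16, adjusted p 0.0688). The third SKI probe set, 204270_at, lay between 2.79 and 3.10.

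TGIF1, a homeodomain repressor that binds SMAD2 and SMAD3 and also retinoid receptor complexes, was lowest at 4 h in its brightest probe set. In 203313_s_at it read 5.95 untreated and 3.71, 4.73, 5.50, 4.43 and 5.95 at 4, 12, 24, 48 and 72 h. It was 4.73-fold lower than untreated at 4 h, 2.33-fold at 12 h, 1.37-fold at 24 h and 2.87-fold at 48 h, and equal to it at 72 h. The slope, 0.08 ± 0.17 (SE), was not called (adjusted p 0.799). The other kept probe set, 244858_at, was between 4.27 and 4.59 and did not show these differences (r of -0.34 to the first), so the probe sets disagree for this gene. The third, 1566901_at, lay below the filter.

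**Figure D3:**
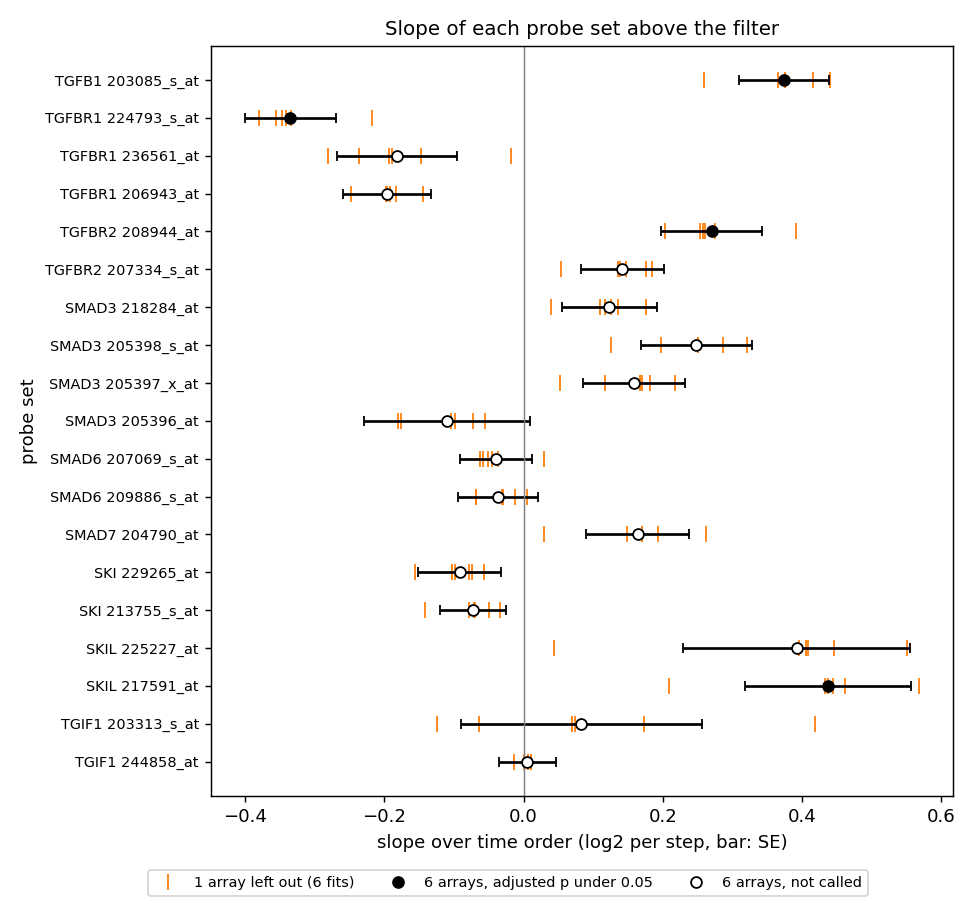
Slope over time order (log2 per step, horizontal axis) of the 19 kept probe sets (rows). Circles are the limma slopes over 6 arrays with bars of 1 SE, filled where the adjusted p is under 0.05, and orange ticks are the slopes with each of the 6 arrays left out in turn. The TGFB1 and TGFBR1 224793_s_at slopes stay on their side of 0 in all 6, as do all rows but those of SMAD6 and TGIF1. SKIL 225227_at reaches 0.04 without the untreated array.

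Counted at 2-fold or more from untreated, 2 of the 19 kept probe sets were higher and 3 lower at 4 h, against 1.84% higher and 2.55% lower of all kept probe sets. The higher were both of SKIL, and the lower were 2 of TGFBR1 and 1 of TGIF1. The counts at 12 h were the same, 2 and 3 (2.16% higher and 1.92% lower of all). At 24 h 2 were higher and 1 lower (3.15% and 2.63% of all), and at 48 h 2 and 3 (5.58% and 4.93%). At 72 h 6 were higher and 3 lower, against 10.8% and 12.8% of all kept probe sets. The 6 were the 2 of SKIL, 2 of SMAD3, and 1 each of TGFB1 and TGFBR2, and the 3 were those of TGFBR1. These are differences of single arrays with no replicate check and no p-value. The median difference of the 19 was 0.07, 0.10, 0.23, 0.07 and 0.10 in time order, and that of all kept probe sets 0.01, -0.06, -0.03, -0.04 and -0.08. All 27 of these 2-fold differences and all 4 called slopes kept their direction under cyclic loess and under both shifts to hybridisation controls. Those shifts moved the median of all probe sets by -0.56 to 1.0, against values of at most 0.04 in size for cyclic loess.

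Profiles were also correlated across the brightest probe set of each gene, over 6 arrays that the genes share. TGFB1 and TGFBR2, both highest at 72 h, had an r of 0.91. SMAD7, an inhibitor also highest at 72 h, had 0.88 to TGFB1 and 0.89 to TGFBR2. SMAD3, also highest at 72 h, had 0.71 to TGFB1 and 0.40 to TGFBR2. TGFBR1 ran against SKIL (-0.88) and TGFB1 (-0.82). The 4 genes with the widest range were each set against 4149 genes with a range of at least 1, themselves included. The most similar other genes were sought by the same r. Those of SKIL were HNRNPLL (0.986), CASP9 (0.971) and CDKN2D (0.968), and 42 genes reached 0.9. Those of TGIF1 were MSMO1 (0.955), ASAP1 (0.929) and KDM5B (0.925), and 4 genes reached 0.9. The profile of TGFB1, a late climb, was the commonest: 808 genes reached 0.9, led by AKAP13 (0.999), ANKDD1A (0.998) and TIMP1 (0.997). Those of TGFBR1 were ZBTB44 (0.997), KLF15 (0.996) and FCHSD2 (0.994), among 333.

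The remaining pathway was read from lists of 85 genes in 9 roles, of which 79 had a probe set of their own and 62 had 1 that was kept. Of their 128 kept probe sets, 11 rose (8 genes) and 9 fell (6 genes), against 7.47% and 9.68% of all kept probe sets. The median 72 h difference was -0.06, and -0.08 over all. Without the 72 h array 3 of these rose (1 of GDF15 and 2 of ID2) and 2 fell (1 each of MMP9 and PPM1A). Leaving out the untreated array gave 6 rises and 4 falls, and leaving out the 12 h array 6 and 7. With the arrays shifted to equal hybridisation controls none of the 9 falls was called, although all kept their direction.

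Among proteins that hold TGF-beta latent or release it, 4 of 14 kept probe sets rose (7.47% of all kept) and none fell (9.68%). The rising ones were 3 of the 5 of THBS1, thrombospondin, which can activate latent TGF-beta, and the 1 of LRRC32 (GARP), which tethers the latent form to the cell surface. THBS1 201110_s_at read 2.40 untreated and 4.13, 3.34, 3.84, 6.42 and 8.04 in ATRA, at least 20.8-fold higher at 72 h. This probe set and 201109_s_at were below the filter in untreated cells and passed it only through ATRA arrays. The slope of 201110_s_at was 1.02 ± 0.18 (SE) with a limma adjusted p of 0.0109, and those of the other 2 had 0.0211 and 0.0495. Without the 72 h array the adjusted p values of the 3 were between 0.0807 and 0.373, and that of LRRC32 was 0.0612. LRRC32 read 3.84 untreated and 4.52, 4.53, 4.72, 5.10 and 5.61 in ATRA, with each array at or above the one before and a slope of 0.31 ± 0.05 (adjusted p 0.00693). NRROS, which tethers latent TGF-beta in myeloid cells, read 8.10 untreated and between 7.18 and 7.90 in ATRA and was not called.

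Of the other ligands, 1 of 12 kept probe sets rose (7.47% of all kept). GDF15, a distant family member, read 3.19 untreated and 3.20, 3.75, 3.84, 4.71 and 7.85 in ATRA, at least 18.3-fold higher at 72 h (slope 0.80 ± 0.18, SE, limma adjusted p 0.0247). Its slope was 0.37 without the 72 h array, and the call was lost without the 4 h array (0.0574), without the 12 h array (0.051) and with the bioC covariate (0.0512). Untreated cells were below the filter here too. BMP2 stood between 2.42 and 3.22 until 48 h and at 5.58 at 72 h in 205289_at, and was not called by either probe set (adjusted p of 0.0582 and 0.0645). The 3 kept probe sets of GDF11 differed at 72 h by -0.29 to -1.29, with no call. Of 18 kept receptor probe sets, 1 of 5 of BMPR2 rose and 1 of 2 of TGFBR3 fell (7.47% and 9.68% of all kept). BMPR2 225144_at, the type II BMP receptor, read 5.05 untreated and 4.75, 5.15, 5.24, 5.66 and 7.34 in ATRA (adjusted p 0.0385). TGFBR3 (betaglycan), a co-receptor that presents ligand, read 5.21 untreated and 5.13, 4.54, 4.66, 4.21 and 4.16 in ATRA (adjusted p 0.016). Neither call held without the 72 h array (0.225 and 0.0783). BAMBI, a decoy receptor, read 5.52 untreated and between 3.97 and 4.43 in ATRA, with an adjusted p of 0.067.

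None of the 12 kept probe sets of SMAD2, SMAD4, SMAD5 and SMAD9 rose and 3 fell (7.47% and 9.68% of all kept). The 3 were all among the 4 of SMAD5, which like SMAD1 serves the BMP receptors. SMAD5 225219_at read 7.82 untreated and 7.63, 7.35, 7.43, 7.19 and 6.30 in ATRA, and was 2.88-fold lower at 72 h (limma adjusted p 0.0297). The other 2 had adjusted p of 0.0216 and 0.0408, and without the 72 h array the 3 had 0.178 to 0.281. The fourth, 225223_at, had 0.0523. SMAD2 probe sets differed at 72 h by -0.26 to -1.10 and those of SMAD4, the common partner, by -0.09 to -0.41, with no call. All 12 were below untreated at 72 h, and 6 of the 12 with the arrays shifted to equal hybridisation controls and 11 with cyclic loess. The median 72 h difference of all kept probe sets was -0.08, and the share of them below untreated was not counted. The count of 12 is therefore not read as a trait of these SMADs. Among adaptors, ligases and phosphatases 4 of 30 fell and none rose (9.68% and 7.47% of all kept). They were 2 of 3 of STUB1, a ubiquitin ligase, the 1 of STRAP, which holds SMAD7 at the receptor, and 1 of 6 of PPM1A, a SMAD phosphatase, with 72 h differences of -1.31, -1.20, -1.13 and -0.98. Without the 72 h array the STUB1 and STRAP calls were lost (adjusted p of 0.115 to 0.247). The other PPM1A probe sets were not called. Those of TGFBRAP1 differed at 72 h by -0.9 to -1.1, with no call. None of 22 probe sets of nuclear partners and none of 3 of SKI relatives was called. Among the nuclear partners SP1 differed at 72 h by 0.34 to 1.06 and SIN3A by -0.38 to -0.88.

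**Figure D4:**
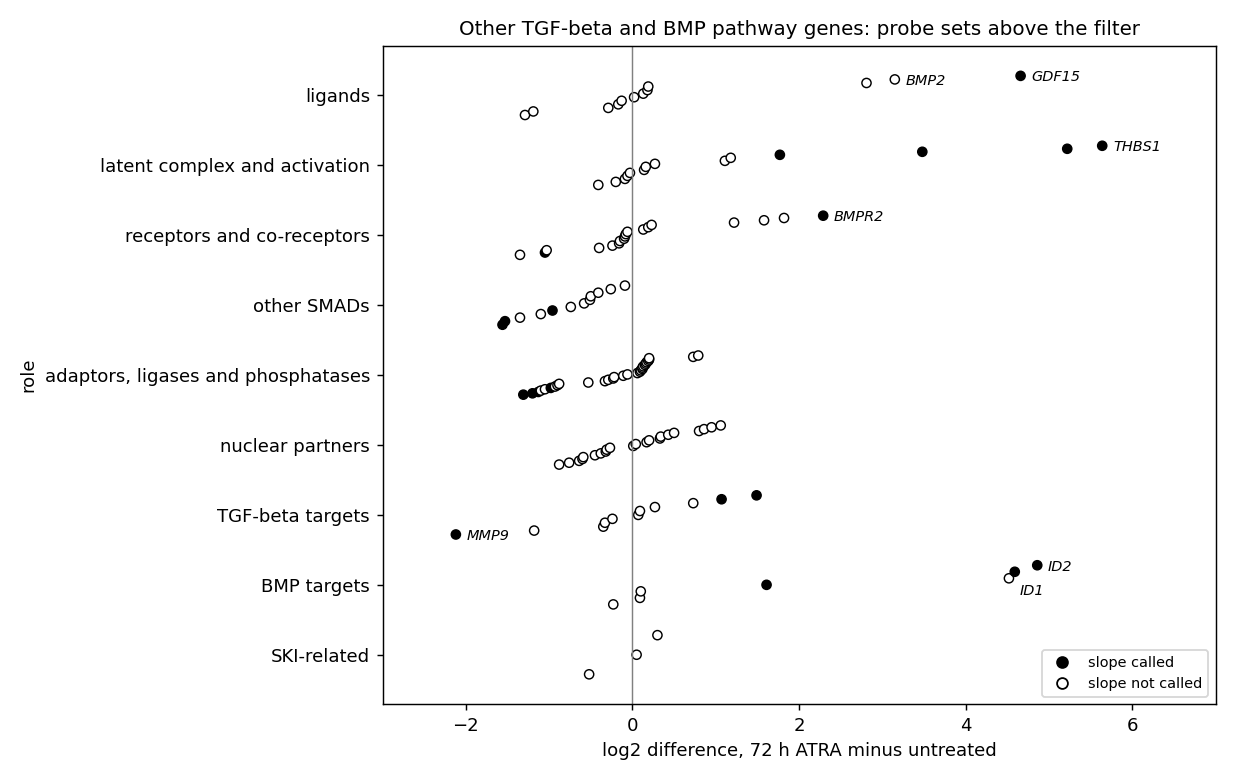
Log2 difference between 72 h of ATRA and untreated cells (horizontal axis) for the kept probe sets of other TGF-beta and BMP pathway genes, by role (rows); each circle is 1 probe set, filled where its slope over the 6 arrays was called, and genes at 2 or more from 0 are named once. All 12 circles of the other SMADs lie below 0 (6 with the arrays shifted to equal hybridisation controls, 11 with cyclic loess). They belong to 4 genes, and the median of all kept probe sets is -0.08. The share of all kept probe sets below 0 was not counted, so the 12 are not read as a trait of these SMADs. The circles beyond 4 belong to GDF15, THBS1, ID2 and ID1.

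Genes known to answer these pathways gave calls both ways, beside 7.47% rising and 9.68% falling of all kept probe sets. Of 11 kept probe sets of TGF-beta targets, the 1 of JUNB and 1 of 2 of TSC22D3 rose, to 8.24 and 7.60 at 72 h against 6.75 and 6.53 untreated (limma adjusted p of 0.0319 and 0.0177). That of MMP9, a matrix protease, fell to 5.49 at 72 h, against 7.61 untreated (adjusted p 0.00861, and 0.0304 without the 72 h array). Without that array JUNB had 0.262 and TSC22D3 0.108. The 2 kept probe sets of TSC22D1 differed at 72 h by -0.33 to -1.18, with no call. Of 7 kept probe sets of BMP targets 3 rose, both of ID2, an inhibitor of helix-loop-helix factors, and 1 of 2 of ATOH8 (adjusted p 0.0365, and 0.31 without the 72 h array). ID2 201565_s_at read 5.82 untreated and 6.91, 8.28, 8.62, 9.64 and 10.67 in ATRA (adjusted p 0.000307), and both its probe sets were called with any 1 array left out. The other, 201566_x_at, read 3.60 untreated, just below the filter. ID1 read 3.55 untreated and 9.54, 9.46, 8.57, 8.01 and 8.07 in ATRA, high at all 5 times, and its slope was not called (adjusted p 0.433).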

How the data were processed

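Total RNA of NB4 cells was measured on 6 arrays, and the time in each label gave its group. The authors deposited log2 probe set summaries. Per the submitters' processing notes these come from RMA, whose version is not given in the sources used here, nor is a build. RMA equalises the distributions of the arrays, which would hide a shift of most transcripts. Probe sets were named through the platform annotation, with symbols updated to GRCh38.p14. Those with several genes (1801) or none (11777) were not used here.

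The 10 genes, the pathway lists and the tests were chosen with earlier results of these data known. Slopes over time order (0 to 5) were fitted in R 4.3.3 by limma 3.58.1 with an intensity trend in eBayes, and p-values were adjusted over all 25189 kept probe sets. The fit was tested on simulated data. A slope that was not called is not shown to be flat. The number of arrays limits the precision, and an SE measures scatter around a line, not between replicates. Each ATRA array was also compared with the untreated one, at 2-fold and without a p-value. All 10 genes are named. In the lists the rule allowed for called probe sets, up to 4 genes per role by 72 h difference, and ID1. Not every gene that it allowed is named. NRROS was added after its values were seen. Alternatives were arrays left out, a bioC covariate, scalings, filters, fold thresholds, baselines, time scales and 1 probe set per gene.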

Additional observations from a re-analysis of the deposited data

How the results depend on the processing

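With 1 array per time, each called slope rests on few points. Of 17 settings, the call of TGFB1 held in 14, of TGFBR1 224793_s_at in 12, of TGFBR2 208944_at in 8 of 17 and of SKIL 217591_at in 7 of 16, and no slope past the threshold turned its direction. Leaving out 1 array, the genes' own rising probe sets (3 in the full fit) were 0 to 3 and the falling ones (1) 0 to 2, and in the wider lists rising ones (11) were 3 to 12 and falling ones (9) 2 to 12. With bioC as a covariate the genes' own were 1 rising and 0 falling, and in the lists 5 rising. Within the 4, 24, 48 and 72 h arrays they were 0 and 0, and in the lists 2 and 0. The shift to all hybridisation controls left 0 falling among the genes and 0 in the lists, and the shift on bioB, bioD and cre gave 4 and 25. These shifts move every probe set of an array alike. The shares over all kept probe sets were counted in the main setting alone, so these counts are not read as results about the genes. With 1 probe set per gene the lists had 7 rising and 5 falling, with hours in place of time order 19 and 15, and with log2(hours + 1) 3 and 3, when 1 of the genes' own rose. The causes were not tested, except that fewer arrays or probe sets enter some fits.

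Probe sets 2-fold or more from untreated were 5, 5, 3, 5 and 9 in time order. At 1.5-fold they were 8, 9, 8 and 9 at 4, 12, 24 and 48 h, and at 3-fold 3, 1, 2 and 5 at 4, 12, 48 and 72 h. The shift to all hybridisation controls gave 8, 12 and 13 at 4, 24 and 48 h, and that without bioC 6 at 24 h. Here too the shares over all kept probe sets were counted in the main setting alone. With 1 probe set per gene 3 remained at 4, 12 and 48 h and 4 at 72 h. Against the mean of the 0 and 4 h arrays they were 1, 0 and 3 at 12, 24 and 48 h, and against the 4 h array 1, 0 and 5 at 24, 48 and 72 h. No paired analysis was possible because each time has 1 array.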
